A study of Mus musculus with 3 samples.

Results

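TRBV2, the V gene of the T cell receptor (TCR) β chain that antibody studies call Vβ4, was examined in single-cell TCR-Seq data from inflamed sciatic nerves. Its members were the productive β chain (TRB) contigs of cells that were named TRBV2 in the deposited contig tables. There were 242 such contigs in 242 cells, or 169 rearrangements of 3872 in all. No doublet caller was run, since no gene expression was used, and cells with a second productive TRB were kept (19 of the 242). Cells of 1 library with identical V and J genes and identical CDR3 nucleotides counted as 1 rearrangement, the CDR3 being the loop encoded across the V(D)J junction. All cells were CD45+ cells sorted from nerves of female NOD.AireGW/+ mice with spontaneous neuropathy. NOD is a strain prone to autoimmunity, and the heterozygous GW allele impairs Aire, the thymic factor through which developing T cells meet tissue antigens. Replicates 1 and 2 held 1 mouse each and replicate 3 pooled 2 mice, so 4 mice gave 3 libraries of 1 condition, with no untreated, wild-type or other-tissue sample to compare. The labels give no age. Gene expression was not analysed here, so CD4+ and CD8+ T cells could not be told apart, and the sort's CD45 marker could be checked only in that each cell used carried a productive TCR chain.

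A β chain is built in the thymus when the RAG recombinase joins 1 of many V segments to a D and a J segment. RAG cuts at recombination signals, which are a heptamer and a nonamer held apart by a spacer, and bases are then trimmed from the cut ends and added between them. The V segment encodes the CDR1 and CDR2 loops, which mainly contact the MHC molecule, and the start of the CDR3, which mainly contacts the peptide. Each β chain pairs with an α chain (TRA) made in the same way without a D segment. In NOD mice, Vβ4 is known as the β chain segment of a widely used diabetogenic CD4+ T cell clone, and in murine gammaherpesvirus infection Vβ4+CD8+ T cells expand.

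On GRCm38, the build named mm10, TRBV2 lies at chr6:41047340-41047995 on the plus strand. It has 2 exons, chr6:41047340-41047604 with the leader and chr6:41047701-41047995 with the V region. It is the second functional V gene of the locus from the 5′ end, 294 bases upstream of TRBV3 and 485868 bases upstream of TRBJ1-1, the first J segment. The V region exon is shown because every TRBV2 receptor carries it, and its capitals mark, in order, the CDR1, the CDR2 and the 17 bases from the conserved cysteine codon to the V end that open the CDR3.
TRBV2 exon 2: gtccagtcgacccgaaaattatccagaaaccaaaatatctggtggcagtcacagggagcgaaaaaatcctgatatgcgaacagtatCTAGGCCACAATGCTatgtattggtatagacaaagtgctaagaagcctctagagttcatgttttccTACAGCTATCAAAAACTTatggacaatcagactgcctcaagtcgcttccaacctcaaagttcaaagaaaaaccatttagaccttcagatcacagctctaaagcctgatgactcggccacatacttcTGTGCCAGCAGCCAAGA
The contigs of replicates 2 and 3 gave the V region sequence, and 152 of 153 matched this exon without a change from framework 1 to framework 3. The table of replicate 1, with 89 TRBV2 contigs, gave no V region sequence.

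The next 2 sequences are the recombination signal of TRBV2, shown for the site of the cut with its heptamer and nonamer in capitals, and TRBJ1-2, shown because its use differed most, with the 20 bases that can lie in a CDR3 in capitals. Whether the signal has a part in any result was not tested. They lie at chr6:41047996-41048034 and chr6:41534001-41534048 on the plus strand of GRCm38.
TRBV2 signal: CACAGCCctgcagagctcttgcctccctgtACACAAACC
TRBJ1-2: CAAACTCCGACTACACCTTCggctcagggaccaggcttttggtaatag
TRBV5, which encodes Vβ1, has the same 17 bases at its V end and the same heptamer and nonamer, with other bases in the 23-base spacer, so it served as the nearest comparison for the V end.

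The 3 largest TRBV2 clones of each library are shown next by their CDR3, from the cysteine codon to the J codon that closes the loop, with the bases between the V and the J match in capitals.
Replicate 1, TRBJ2-7, 6 cells: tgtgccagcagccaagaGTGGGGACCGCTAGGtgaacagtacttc
Replicate 1, TRBJ1-3, 4 cells: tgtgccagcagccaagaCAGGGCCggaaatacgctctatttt
Replicate 1, TRBJ1-6, 3 cells: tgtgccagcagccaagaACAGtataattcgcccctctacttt
Replicate 2, TRBJ1-6, 29 cells: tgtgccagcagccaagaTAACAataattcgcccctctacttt
Replicate 2, TRBJ1-1, 8 cells: tgtgccagcagcTTCAGGGGagtcttcttt
Replicate 2, TRBJ2-7, 4 cells: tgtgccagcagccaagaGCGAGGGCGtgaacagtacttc
Replicate 3, TRBJ2-7, 2 cells: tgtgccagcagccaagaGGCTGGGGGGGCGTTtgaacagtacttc
Replicate 3, TRBJ1-4, 2 cells: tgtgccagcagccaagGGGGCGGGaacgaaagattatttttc
Replicate 3, TRBJ2-7, 1 cell: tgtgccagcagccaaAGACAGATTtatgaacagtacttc
Of these 9 CDR3s, 6 kept the whole V end.

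Replicates 1, 2 and 3 had 2374, 3555 and 705 cells with a productive chain and 34630, 41338 and 5142 unique molecular identifiers (UMIs, which count molecules) on them. The median TRBV2 contig had 4, 3 and 3 UMIs, against 7, 6 and 4 for all TRB contigs, and 14, 19 and 3 TRBV2 contigs rested on 1 UMI. Libraries 1 and 2 shared 7 cell barcodes and libraries 2 and 3 shared 3, which held no identical chain, and 1 of them carried TRBV2 in 1 library. Intervals of shares below are exact Clopper-Pearson 95% intervals, and those of odds ratios are exact conditional 95% intervals stratified by library. Both treat rearrangements or contigs as independent and cover counting error only, and p-values compare rearrangements of these libraries, not mice.

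TRBV2 made between 2.61% and 5.38% of the rearrangements of a library. Its 70 rearrangements in replicate 1 were 5.38% of the 1302 with a TRB (4.21% to 6.74%). The 85 of replicate 2 were 4.18% of 2033 (3.35% to 5.14%), and the 14 of replicate 3 were 2.61% of 537 (1.43% to 4.34%). It ranked 9th, 11th and 15th among 22 TRBV names. The share differed between libraries at an exact p of 0.0241, but not after adjustment over the 21 genes tested (adjusted p = 0.112), where 4.76% of genes were called. TRBV5 was that 1 gene, with 12.7%, 9.35% and 6.70% of rearrangements (exact test, adjusted p = 0.00319), also highest in replicate 1 and lowest in replicate 3. TRBV1, the V gene on the other side of the trypsinogen genes, had 6.37%, 8.51% and 9.50% (exact test, adjusted p = 0.112). The 3 genes nearest to TRBV2 in share were TRBV31, TRBV15 and TRBV13-2, at mean distances of 0.830, 1.03 and 1.09 percentage points. A further 402 rearrangements (10.4%) had the joint name TRBV12-2+TRBV13-2, which counted as a name of its own. How near TRBV13-2 lies to TRBV2 thus depends on where these are counted.

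Counted by cells, TRBV2 made 3.76% of TRB contigs in replicate 1 (89 of 2367, 3.03% to 4.61%), 3.83% in replicate 2 (137 of 3578, 3.22% to 4.51%) and 2.45% in replicate 3 (16 of 652, 1.41% to 3.95%). The intervals of replicates 1 and 2 almost coincided by cells, whereas by rearrangements replicate 1 had the higher share. A single clone of 29 cells made 21.2% of the TRBV2 cells of replicate 2, and without it the share there was 3.04%.

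TRBV2 junctions often kept the whole germline V end, and did so in all 3 libraries. All 169 TRBV2 rearrangements were matched to the reference V and J segments. Of the 3703 others, 137 of TRBV10 and 402 of the joint name TRBV12-2+TRBV13-2 were left out by rule, 3159 were matched and 5 were not. The whole 17-base V end was present in 84 of 169, or 49.7%, with 45.7%, 52.9% and 50.0% in replicates 1, 2 and 3. In TRBV5 the same V end was whole in 38.1% of 391 rearrangements (38.2%, 37.4% and 41.7% by library). TRBV2 had the highest share of the 19 genes with at least 10 matched rearrangements, as the plot of whole V ends by gene shows. These shares were computed after other results on the junctions had been seen and were not tested, and they depend on the end that the reference gives each V gene, which TRBV3 never kept in 136 rearrangements.

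**Figure D1:**
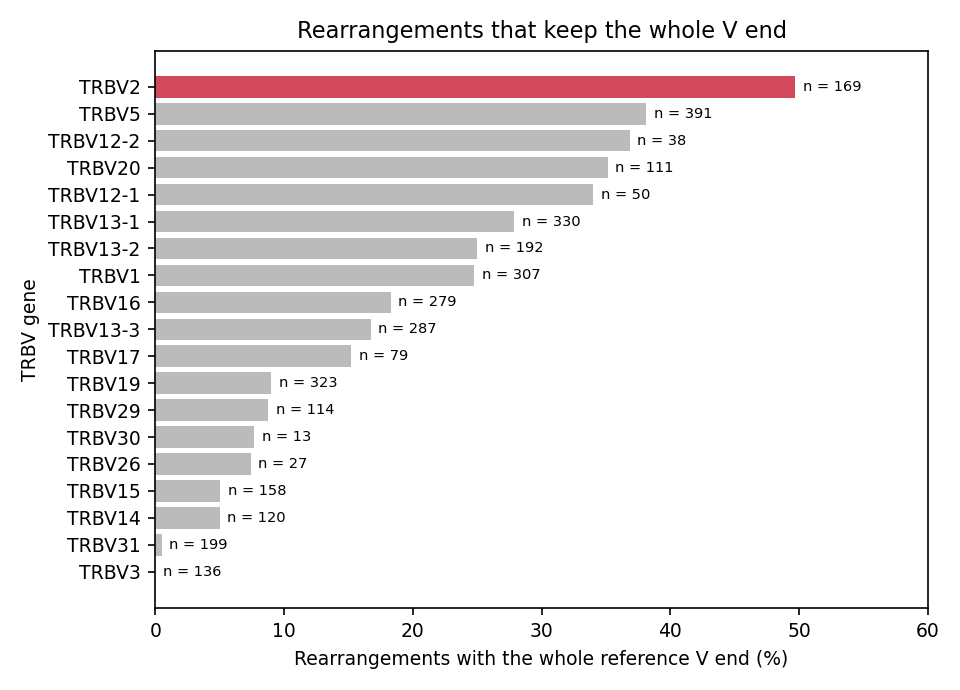
Share of rearrangements (%) whose CDR3 begins with the whole reference V end, for each TRBV gene with at least 10 matched rearrangements over the 3 libraries, with the number of rearrangements (n) beside each bar. TRBV2 (red) is at 49.7% and TRBV5, with an identical V end, at 38.1%.

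On average 1.46 bases were missing from the V end in TRBV2, 1.98 in TRBV5 and 2.79 over the 3159 matched rearrangements of other genes, TRBV5 included. Between the V and the J match lay a mean of 9.11 bases in TRBV2 and 9.93 in the same 3159, of which 4.27 and 4.10 matched no D segment. No stretch of at least 5 bases of TRBD1 or TRBD2 was found in 55 of the 169 TRBV2 junctions. With a J of the TRBJ1 cluster, which lies upstream of TRBD2, 30 of 70 junctions matched TRBD1 best, 5 TRBD2, 5 both equally and 30 neither. With a J of the TRBJ2 cluster, 47 of 99 matched TRBD2 best, 25 TRBD1, 2 both and 25 neither. TRBD2 matches thus lay mostly in rearrangements with TRBJ2 genes, and TRBD1 matches in both clusters.

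Most TRBV2 CDR3s began with the residues that the V end encodes. These are CASSQ, followed by the codon start GA, which can only be completed to aspartate or glutamate. CASSQ opened 133 of 169 TRBV2 CDR3s (78.7%), with 82.9%, 77.6% and 64.3% in the 3 libraries. In 86 of these 133 (64.7%) the next residue was aspartate (63) or glutamate (23), against 64.2% of the 240 CASSQ starts of TRBV5, and arginine (10) and glycine (9) were the next most frequent. The other starts were CASSP in 10 rearrangements, CASSH in 7, CASSL and CASSR in 5 each, and 7 further starts in 1 or 2 each. The second largest TRBV2 clone, of 8 cells, was the only rearrangement that began with CASSF.

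TRBV2 rearrangements used TRBJ1-2 more often than those of the other V genes did. TRBJ1-2 is the second J segment downstream of TRBD1. Replicate 1 had it in 8 of 70 TRBV2 rearrangements (11.4%, 5.07% to 21.3%), replicate 2 in 14 of 85 (16.5%, 9.31% to 26.1%) and replicate 3 in 3 of 14 (21.4%, 4.66% to 50.8%). Among the other V genes it was found in 3.73%, 5.24% and 4.59%. The TRBV2 shares were thus above those of the others in 3 of 3 libraries, though the interval of replicate 3 included the share of the others. Over the libraries 25 TRBV2 rearrangements had TRBJ1-2 where 8.46 were expected, a ratio of 2.96 and an odds ratio of 3.65 (95% interval 2.22 to 5.80). An exact test stratified by library gave p = 5.84e-07, or 5.41e-05 after Benjamini-Hochberg adjustment over all 278 pairs of a V gene and a property, of which 3.6% were called. This was the only one of 15 TRBV2 properties that was called. With replicate 2 left out, TRBJ1-2 fell under the expected number of 5 that a test required. When that limit was lowered to 1, its ratio without replicate 2 was 3.05 with 11 observed and 3.61 expected, and the exact test's adjusted p was 0.0651. In cells with exactly 1 productive TRB the ratio was 2.92, with 22 observed and 7.54 expected (exact test, adjusted p = 0.000303).

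**Figure D2:**
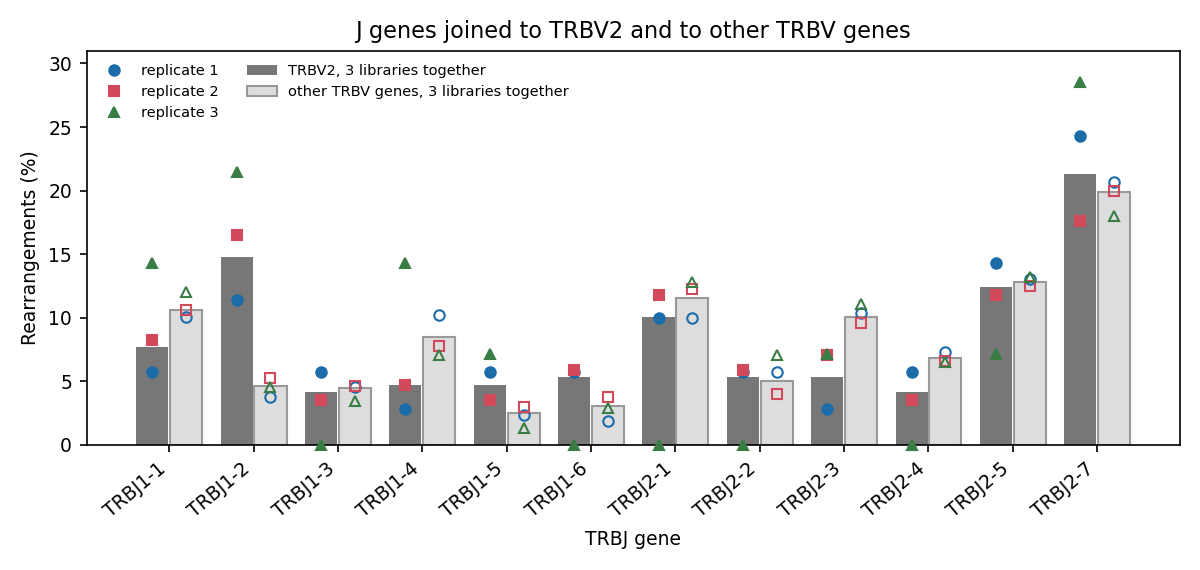
Share of rearrangements (%) with each TRBJ gene, for TRBV2 (dark bars) and all other TRBV genes (light bars) over the 3 libraries, with each library as a filled symbol for TRBV2 and an open symbol for the others. TRBJ1-2 stands at 14.8% in TRBV2 and 4.64% in the others, with all 3 filled symbols above all 3 open ones, and TRBJ2-7 was the most frequent J of both.

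TRBV2 had the highest ratio of the 16 V genes that could be tested with TRBJ1-2. The other 15 lay between 0.142 and 1.76, and 1 of them was called: TRBV16, with 2 of 279 rearrangements (exact test, adjusted p = 0.00611). TRBV5 had TRBJ1-2 in 11 of 391 rearrangements, or 2.81%, a ratio of 0.564 (exact test, adjusted p = 0.264). 

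**Figure D3:**
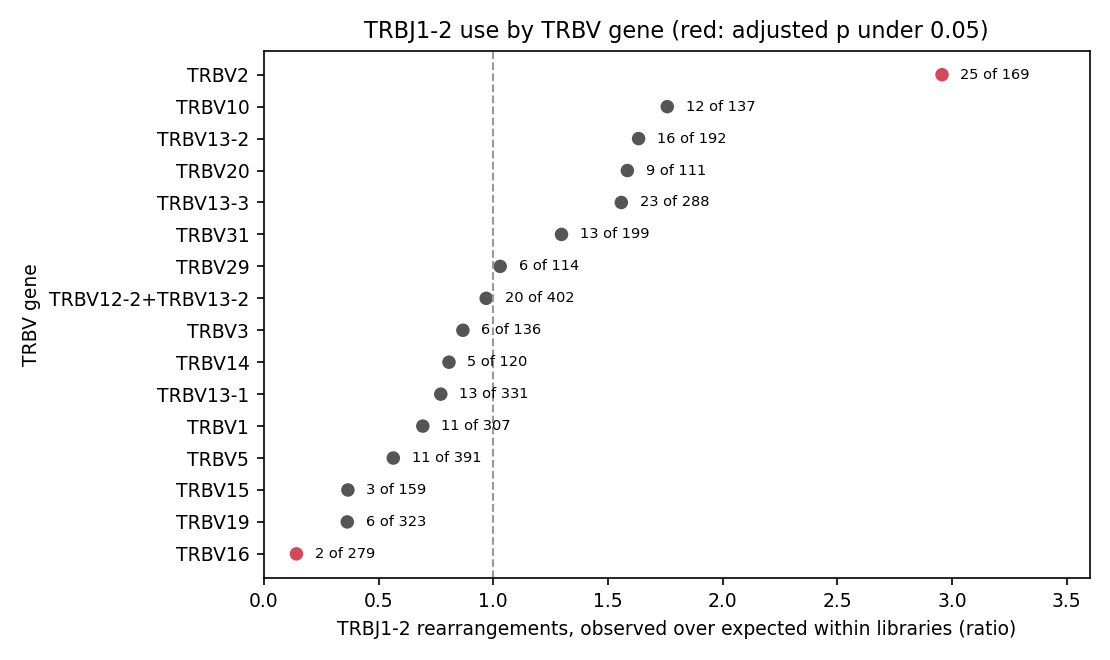
Ratio of observed to expected rearrangements with TRBJ1-2 for each TRBV gene with an expected number of at least 5, with the number with TRBJ1-2 and the number of rearrangements beside each point. TRBV2 lies at 2.96 and TRBV16 at 0.142 (both red, adjusted p under 0.05), and the dashed line marks a ratio of 1.

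The TRBJ1-2 rearrangements of TRBV2 were mostly of 1 cell. Within a library their nucleotide CDR3s differ by definition. Over the libraries the 25 had 25 nucleotide and 23 amino acid CDR3s. They held 28 cells, since 23 were found in 1 cell, 1 in 2 cells and 1 in 3 cells. CASSQ opened 21 of them, and 12 kept the whole V end. Between 1 and 13 bases lay between V and J, 12 had no D match and their CDR3s had 11 to 16 residues. Within the TRBJ1 cluster, TRBJ1-2 made 35.7% of TRBV2 rearrangements and 13.7% of those of other genes, and the cluster as a whole made 41.4% of TRBV2 and 33.8% of the others.

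The other J genes did not pass the test in TRBV2. TRBJ2-7, the most frequent, made 36 of 169 rearrangements (21.3%) where 34.1 were expected. TRBJ2-5 made 21, TRBJ2-1 17 and TRBJ1-1 13, all below their expected 21.6, 19.1 and 17.5. TRBJ1-6, TRBJ2-2 and TRBJ2-3 made 9 each, against 5.15, 8.47 and 16.6 expected. For TRBJ2-3 the exact p was 0.0463 and the adjusted p 0.286, with a TRBV2 share below that of the others in 3 of 3 libraries. TRBJ1-4 made 8 (14.4 expected), TRBJ1-3 and TRBJ2-4 made 7 each (7.63 and 11.5 expected), and TRBJ1-5 made 8, with an expected number under 5. When expected numbers of at least 1 were allowed, TRBJ1-5 had 8 against 4.53 expected (exact p = 0.135, adjusted p = 0.567). Counted by cells, TRBJ1-6 rose to 34 of 137 TRBV2 contigs in replicate 2, of which the largest clone made 29.

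CDR3 length in TRBV2 was close to that of other V genes in replicates 1 and 3. Its mean was 14.2 ± 1.5 residues (SD over 70 rearrangements) in replicate 1, 14.4 ± 1.61 (85) in replicate 2 and 14.1 ± 1.14 (14) in replicate 3, against 14.0, 13.9 and 14.0 in the others. CDR3s of at least 16 residues made 12.9%, 22.4% and 14.3% of TRBV2 rearrangements and 12.6%, 11.3% and 15.5% of the others, so the excess was in replicate 2. Over the libraries there were 30 where 21.0 were expected (exact p = 0.0415, adjusted p = 0.281), and without replicate 2 the ratio was 1.00. CDR3s of at most 12 residues numbered 21, with 25.7 expected (exact test, adjusted p = 0.770), and none was in replicate 3.

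**Figure D4:**
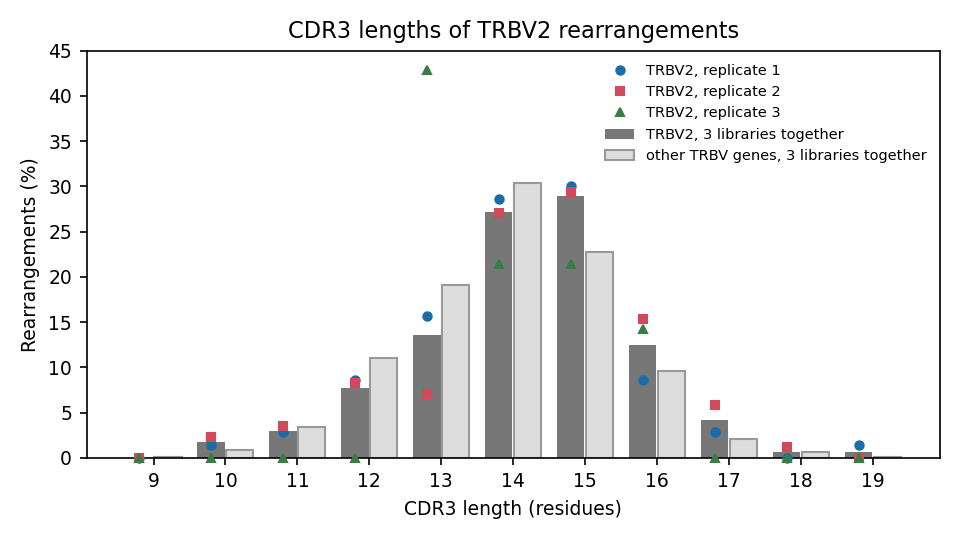
Share of rearrangements (%) at each CDR3 length from 9 to 19 residues, for TRBV2 (dark bars) and other TRBV genes (light bars) over the 3 libraries, with the TRBV2 share of each library as symbols. TRBV2 peaks at 15 residues (49 of 169) and the others at 14 (30.4%), and the 14 TRBV2 rearrangements of replicate 3 have 13 to 16 residues.

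Most TRBV2 rearrangements were found in 1 cell. Those in more than 1 cell, called expanded here, numbered 11, 13 and 2, or 15.7% (8.11% to 26.4%), 15.3% (8.40% to 24.7%) and 14.3% (1.78% to 42.8%) of the rearrangements of the 3 libraries. The shares in other V genes were 20.7%, 22.4% and 12.4%, and 26 expanded TRBV2 rearrangements stood against 34.9 expected (odds ratio 0.688, interval 0.431 to 1.06, exact p = 0.0969, adjusted p = 0.440). Expanded clones held 33.7%, 47.4% and 25.0% of TRBV2 cells and 57.1%, 56.1% and 28.0% of the cells of other V genes. The largest TRBV2 clones had 6, 29 and 2 cells, against 365, 96 and 14 for the largest of the others.

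**Figure D5:**
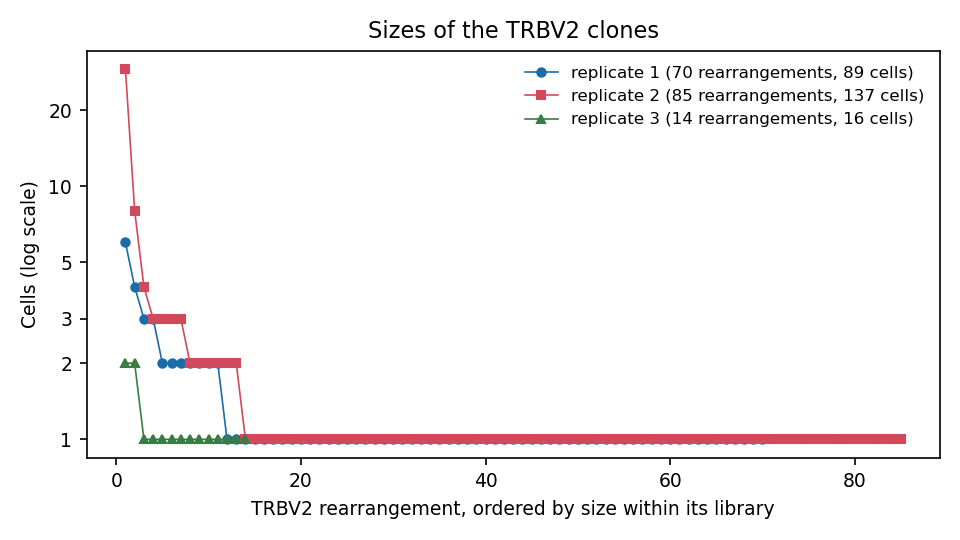
Cells per TRBV2 rearrangement (log scale) in each library, ordered from the largest, with a symbol for each rearrangement. The clone of 29 cells in replicate 2 stands above all others, of which the next largest have 8 cells (replicate 2) and 6 cells (replicate 1), and 143 of 169 rearrangements are at 1 cell.

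The clone of 29 cells in replicate 2 joined TRBV2 to TRBJ1-6 with a whole V end and 5 bases between V and J, none of which were assigned to a D segment. Its 29 cells carried 98 TRB UMIs. A productive α chain was found in 22 of them, and in all 22 it was the same nucleotide sequence, TRAV12D-2 joined to TRAJ26. The clone of 8 cells had a CDR3 of 10 residues with TRBJ1-1, from which 5 bases of the V end were missing, and paired in 7 cells with TRAV10D and TRAJ27. In the third clone of replicate 2, of 4 cells, 3 had a TRAV9-1 and TRAJ42 chain.

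In replicate 1 the largest clone, of 6 cells with TRBJ2-7, held 2 productive α chains. TRAV10N with TRAJ49 and TRAV3-3 with TRAJ45 were each found in 5 of its 6 cells. The clones of 4 and 3 cells paired in every cell with TRAV6-1 and TRAJ31 and with TRAV9-1 and TRAJ42. In replicate 3 both clones of 2 cells had 1 α chain in both cells, TRAV4D-4 with TRAJ22 and TRAV5-4 with TRAJ23. The third by rule was a single cell, first among equals in alphabetical order.

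α chains were paired with TRBV2 in 131 of the 2582 paired rearrangements, which come from cells with exactly 1 TRA and 1 TRB (58, 62 and 11 by library). TRAV genes were grouped into families by their number. This merges the near-identical D and N copies and also the other members of each family. TRBV2 was found with 17 of 19 TRAV families. TRAV9 led with 22 pairs where 13.0 were expected, 10, 11 and 1 by library (odds ratio 1.91, interval 1.13 to 3.11, exact p = 0.0105, adjusted p = 0.223). TRAV12 followed with 15 (9.79 expected), TRAV5 with 14 (13.4), TRAV6 with 13 (20.5) and TRAV13 with 11 (11.5). None of the 11 families tested was called with TRBV2, where 1.76% of 170 pairs of a TRBV gene and a family were called.

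TRAV6 differed between the libraries more than the others. It made 11 of 58 TRBV2 pairs in replicate 1, 2 of 62 (3.23%) in replicate 2 and none of the 11 in replicate 3, against 15.9%, 15.8% and 16.4% of the pairs of other V genes. With all libraries the exact test's adjusted p was 0.421. Without replicate 1 there were 2 where 11.2 were expected, and the exact test's adjusted p was 0.0442. The difference between the libraries itself was not tested.

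Of the TRAJ genes, TRAJ31 was the most frequent partner, with 12 pairs where 5.53 were expected and a share above that of the others in 3 of 3 libraries (odds ratio 2.45, interval 1.19 to 4.64, exact p = 0.0110, adjusted p = 0.246). TRAJ23, TRAJ40 and TRAJ52 had 8 pairs each and TRAJ18 had 7. Where at least 5 were expected, no TRAJ gene was called with any TRBV gene by the exact test (0% of 179 pairs). Of these pairs 15 had an unadjusted p under 0.05, TRAJ31 with TRBV2 among them. TRAJ52 and TRAJ18 had under 5 expected and were not among those tested with TRBV2. When expected numbers of at least 1 were allowed, they had 3.98 and 3.74 expected (exact test, adjusted p = 0.893 for each). At that limit 1 of all 621 pairs was called, and 0 with TRBV2.

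α chains with the V and J genes of innate-like T cells were rare in the series, in TRBV2 cells as elsewhere. They were picked by gene name alone, and their CDR3 was not checked. The genes of invariant natural killer T cells, TRAV11 or TRAV11D with TRAJ18, were found in 7 cells of the series, 5 of them in replicate 2. They were found in 0 of 242 TRBV2 cells, which allows a share of up to 1.24% if a count of 0 is taken to allow 3. The genes of mucosal-associated invariant T cells, TRAV1 with TRAJ33, were found in 17 cells, 15 of them in replicate 2. Of these 17 cells 1, in replicate 2, had TRBV2.

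Of the TRBV2 cells, 190 had 1 productive TRA, 22 had more than 1 and 30 had none, and 19 had a second productive TRB. A second TRB was found in 10.1%, 7.30% and 0% of TRBV2 cells in replicates 1, 2 and 3. In other TRB cells it was found in 4.85%, 6.42% and 1.60%, and the difference was not tested. Cells without a TRA made 3.37%, 17.5% and 18.8% of TRBV2 cells in replicates 1, 2 and 3, and 17.7%, 22.1% and 38.5% of other TRB cells, lower in 3 of 3 libraries. Counted by rearrangement, 19 TRBV2 rearrangements had no cell with a TRA where 27.9 were expected (exact p = 0.0664, adjusted p = 0.369).

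Of 165 TRBV2 amino acid sequences (V gene, CDR3 and J gene), 3 were found in more than 1 library, or 1.82%, as were 48 of 3635 sequences of other V genes, or 1.32%. Counted by rearrangement and library, 6 TRBV2 rearrangements had their amino acid sequence in another library where 4.98 were expected, which could be tested when expected numbers of at least 1 were allowed (ratio 1.20, exact p = 0.637, adjusted p = 0.985). The first had TRBJ1-6 and was identical in all its nucleotides in replicate 1 (3 cells) and replicate 2 (2 cells). Its α chains were TRAV9-1 with TRAJ42 in every one of the 5 cells, but differed between the libraries in 4 bases, in capitals here, and 1 residue.
Replicate 1, β: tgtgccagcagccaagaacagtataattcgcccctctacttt
Replicate 1, α: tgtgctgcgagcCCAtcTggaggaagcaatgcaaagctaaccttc
Replicate 2, β: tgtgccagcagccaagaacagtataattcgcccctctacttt
Replicate 2, α: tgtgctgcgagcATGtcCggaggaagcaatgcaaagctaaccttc
The same β chain nucleotides thus went with different α chain nucleotides in the 2 libraries.

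The other 2 shared sequences both had TRBJ1-2, and their α chains had the same amino acid sequence in both libraries. The first, of 13 residues, was found in 1 cell of replicate 1 (12 TRB UMIs) and 1 cell of replicate 3 (1 TRB UMI), each with TRAV13-1 and TRAJ23. The capitals mark the bases that differ between the libraries, and all of these changes are silent.
Replicate 1, β: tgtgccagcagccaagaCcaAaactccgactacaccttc
Replicate 3, β: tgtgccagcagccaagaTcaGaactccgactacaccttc
Replicate 1, α: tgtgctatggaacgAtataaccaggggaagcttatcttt
Replicate 3, α: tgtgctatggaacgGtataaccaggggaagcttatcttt
The second, of 15 residues, was found in 1 cell of replicate 1 (3 TRB UMIs) and 1 cell of replicate 2 (1 TRB UMI), each with TRAV16N and TRAJ18.
Replicate 1, β: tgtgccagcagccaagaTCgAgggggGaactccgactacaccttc
Replicate 2, β: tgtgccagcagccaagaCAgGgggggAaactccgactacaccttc
Replicate 1, α: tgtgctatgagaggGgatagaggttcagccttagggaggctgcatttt
Replicate 2, α: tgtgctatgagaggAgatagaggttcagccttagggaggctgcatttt
In both receptors the β and the α chain thus encoded the same amino acids through different nucleotides in different libraries. Among the other V genes, 34 shared β chain sequences had an α chain in at least 2 libraries. In 8 of these 34 an α chain had the same amino acids in 2 libraries, against 2 of 3 in TRBV2. TRBV5, 1 of the other genes, had 1 of 8. With only 3 such sequences in TRBV2, the difference was not tested.

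The TRAV16N and TRAJ18 chain was then followed in all its cells, a step chosen after its values were seen. It was found in 6 cells, 3 in replicate 1, 2 in replicate 2 and 1 in replicate 3, with a different nucleotide version in each library. The versions differed at 1 base.
Replicate 1, 3 cells: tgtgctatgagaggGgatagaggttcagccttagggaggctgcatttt
Replicate 2, 2 cells: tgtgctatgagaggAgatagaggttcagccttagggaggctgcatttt
Replicate 3, 1 cell: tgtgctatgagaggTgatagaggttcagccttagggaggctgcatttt
A productive TRB was found in 4 of the 6 cells, and in all 4 it was TRBV2. These 4 rearrangements had different nucleotide CDR3s, whose bases between the V and the J match are in capitals.
Replicate 1, TRBJ1-1: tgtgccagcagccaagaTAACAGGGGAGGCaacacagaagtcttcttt
Replicate 1, TRBJ1-2: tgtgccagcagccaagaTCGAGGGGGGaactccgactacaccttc
Replicate 2, TRBJ1-2: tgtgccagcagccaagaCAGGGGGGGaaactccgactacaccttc
Replicate 2, TRBJ1-2: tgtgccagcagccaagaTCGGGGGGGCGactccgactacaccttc
All 4 kept the whole V end and had a run of G bases between V and J. In replicate 3 the cell had no productive TRB, but it had a TRBV2 and TRBJ1-1 contig with a CDR3 of 16 residues that was not full length and rested on 2 UMIs, beside 2 TRB contigs without a CDR3. The remaining cell, in replicate 1, had no TRB contig at all. TRBV2 was therefore the V gene of each TRB contig with a CDR3 in these cells, in all 3 libraries.
Replicate 3, TRBJ1-1, not full length: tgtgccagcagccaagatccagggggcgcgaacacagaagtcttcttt

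More generally, 6 α chain amino acid sequences were found with more than 1 TRBV2 rearrangement, and each of the 6 was found with TRBV2 in 2 libraries. Of the 163 α chain sequences found with TRBV2 these were 3.68%, and of the 3485 combinations of another V gene with an α chain sequence 39, or 1.12%, were found in more than 1 library. By presence in more than 1 library, TRBV2 had the highest share of the 21 V genes with at least 10 rearrangements, ahead of TRBV12-2 with 1 of 32. By presence with more than 1 rearrangement, in any library, it was not the highest. There TRBV5 had 22 of 405, TRBV12-2+TRBV13-2 had 18 of 378 and TRBV29 had 5 of 103, against 6 of 163 in TRBV2, though most of the 21 genes lay lower. These counts were made after the shared sequences had been seen and were not tested. Besides the pair with TRAV13-1 and the pairs with TRAV16N, the 6 included TRAV12D-2 with TRAJ23, found with TRBJ1-2 in 1 cell of replicate 1 and 1 of replicate 3. The α contig of that replicate 1 cell rested on 1 UMI. TRAV12D-2 with TRAJ45 was found with TRBJ1-5 in replicates 1 and 2, on a β contig of 1 UMI in each. TRAV14D-2 with TRAJ31 was found in replicate 1 with TRBJ2-1 and in replicate 2 with TRBJ1-2, in both cases with a CDR3 of 11 residues.
Replicate 1, TRBJ2-1: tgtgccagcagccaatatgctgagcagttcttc
Replicate 2, TRBJ1-2: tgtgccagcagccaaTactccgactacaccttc
TRAV7D-3 with TRAJ27 was found with TRBJ2-2 in 1 cell of replicate 1 and with TRBJ2-7 in 3 cells of replicate 2. TRBJ1-2 was the J of at least 1 β chain in 4 of the 6. The TRAV13-1 chain was also found with 2 rearrangements of other V genes and the TRAV7D-3 chain with 1, so neither was restricted to TRBV2.

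The TRBJ1-2 receptors of TRBV2 did not all share 1 α chain. Their 19 paired rearrangements used 9 TRAV families and 12 TRAJ genes, led by TRAV13 with 5, TRAV12 and TRAV16 with 3 each, and by TRAJ23 with 4 and TRAJ18 with 3. The TRAV16N and TRAJ18 chain described above was found in 3 cells with TRBJ1-2. Whether these receptors vary more or less on the α side than others was not tested. No TRBV2 nucleotide CDR3 was found under another V name. The amino acid CDR3 and J gene of a TRBV2 rearrangement was found in 6 rearrangements of other V genes, of which 4 were TRBV5. Among TRBV2 sequences of equal length and J gene, 6 pairs differed by exactly 1 residue, of which 3 had TRBJ1-2 and 2 lay in different libraries.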

How the data were processed

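Single-cell 5′ V(D)J libraries were made from CD45+ sciatic nerve cells. Per the labels and the study's methods, the authors processed the reads with Cell Ranger against mm10, and the deposited contig tables give, per contig, V(D)J gene names, the CDR3 and counts of reads and UMIs. The Cell Ranger version was not given in the sources used here, and the table of replicate 1 has fewer columns than the others. Contigs called productive in barcodes called cells were used as deposited, with no UMI minimum. Rearrangements were compared with exact tests written with SciPy 1.17.1 in Python 3.11.15: an exact test of library by gene, and, with the libraries as strata, a two-sided exact test of each V gene that had 10 or more rearrangements, where at least 5 were expected. Benjamini-Hochberg adjustment ran over all pairs of each family, with a threshold of 0.05. The stratified test was checked on simulated data. No doublet caller was run. CDR3s were matched base by base to V and J segments of GRCm38 (RefSeq sequence, GENCODE M21 positions, read with pysam 0.24.0), which needed at least 4 bases each. TRBV10, whose reference end did not match its rearrangements, and the joint name TRBV12-2+TRBV13-2 were left out of the V end values. All TRBJ genes, the 5 leading TRAV families and TRAJ genes, and the 3 largest clones of each library were named. The gene, lists and tests were chosen with earlier results of these data known. Alternatives were a minimum of 3 UMIs, cells with 1 TRB, amino acid CDR3s, other expansion limits, an expected number of at least 1 and leaving out each library.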

Additional observations from a re-analysis of the deposited data

Results flagged for a closer look

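Productive TRBV2 contigs were also found in barcodes that were not called cells, which no comparison above used. Replicates 1, 2 and 3 held 80, 55 and 9 such contigs, or 1.15%, 3.89% and 1.66% of the 6960, 1413 and 542 productive TRB contigs outside cells. The CDR3 of a TRBV2 rearrangement of the same library's cells was found in 35, 26 and 0 of them, and TRBJ1-2 in 5, 7 and 0. There was no control sample for these counts.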

How the results depend on the processing

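Of 125 recomputed values, 113 kept their direction, their side of the threshold and their size within the limits set. The TRBJ1-2 ratio of TRBV2 lay between 2.84 and 3.06 over 12 alternatives, of which 11 were called, with adjusted p from 3.76e-05 to 0.0651 (exact test). The highest adjusted p was without replicate 2 at an expected number of at least 1, chosen after seeing the data, where 0 properties were called. Changing the expansion limit or the expected number cannot alter the counts of J genes. Alternatives with only such a change had the main ratio of 2.96, so they are no separate check. Lowering the expected number also left the ratios without replicates 1 and 3 as they were, at 3.06 and 2.84. Leaving out each library gave 0 to 1 called properties, 0 to 1 called TRAV families (TRAV6 without replicate 1) and 0 to 2 sequences in more than 1 library. At least 3 UMIs per contig gave a TRBV2 share of rearrangements of 3.36%, against 4.36% without a minimum. The limit set for this share was its SD over the 3 libraries, 1.39 percentage points. The same setting gave a TRBV2 share of cells of 2.74%, an expanded share of 16.5% and 1 shared sequence. The nucleotide CDR3 also gave 1 shared sequence. The expanded share was 6.51% for more than 2 cells and 1.78% for more than 5. Both shared TRBJ1-2 sequences include a β chain of 1 UMI in 1 library. The causes of these changes were not tested. No paired analysis was possible because the series has 1 condition. Replicate 3, with 14 TRBV2 rearrangements, allows only wide intervals.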
